A study of Homo sapiens with 2 samples.

Results

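The ZBTB genes encode transcription factors that join a BTB domain, through which the proteins pair and recruit partners, to a set of C2H2 zinc fingers that bind DNA. Most are known as repressors, and their BTB domains recruit corepressors such as NCOR1. Members are known to set cell fate in blood and brain, and a few read methylated DNA. HNRNPC is a nuclear RNA-binding protein known to bind runs of U in newly made transcripts, and the series concerns its action as a reader of N6-methyladenosine (m6A).

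The family was taken as the protein-coding RefSeq genes of GRCh38 whose symbol is ZBTB followed by a number and, in some, letters, which gave 42 of 20037 genes on chromosomes 1 to 22, X and Y. A gene was counted as having a peak when a peak summit lay within its span. The members were chosen by symbol with earlier peak counts of these data known, so the counts are descriptions and carry no test. The pattern also takes in ZBTB8OS, whose product is not a BTB zinc finger protein. It had no peak.

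RNA bound to HNRNPC was pulled down and sequenced (RIP-seq) from A549, a widely used line of human lung cancer cells. The groups were 1 immunoprecipitate (IP) library, for which 5 µg of anti-HNRNPC was used, and 1 input library for which no antibody is given. Peaks deposited for the IP library are described here, and no values of the input library by itself were used. Neither group had a replicate, so no p-value is given. Of 23148 peaks, 23111 lay on these chromosomes. Each peak's fold enrichment (a linear ratio) and q were computed by the authors and are used to describe and rank peaks inside this list. Of 24 marker genes of lung epithelium, blood, fibroblasts and endothelium, the epithelial cadherin gene CDH1 alone had a peak, with 10. Of all protein-coding genes 18.4% had one. The epithelial genes EPCAM, KRT8, KRT18 and NKX2-1 had none. KRT18 and NKX2-1 have short spans, 4.05 and 3.84 kb, and 1.996% of all genes from 3.07 to 6.43 kb had a peak. In the span classes of CDH1, KRT8 and EPCAM the shares were 40.4%, 32.5% and 13.4%. The list thus gives little by which to check the line. A peak needs an expressed RNA, so more transcript and more HNRNPC on each transcript cannot be told apart in these values.

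The fold and p of each peak also gave the reads behind it. Under a Poisson model with IP reads scaled by 0.5355, a whole number of IP reads and a control level could be fitted to 100% of the peaks, with −log10 p met within 0.001. Over the whole list the inferred reads at a summit ran from 6 to 93 with a median of 15. The most common control level was 0.103, at 47.5% of peaks, and is called the floor here. How many control reads lay near such summits is not known. These levels are inferred, which library served as control is not stated in the sources used here, and intervals on them cover counting error only.

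HNRNPC peaks were found in 19 of the 42 ZBTB genes, or 45.2% (95% exact Clopper-Pearson interval 29.8 to 61.3%), against 18.4% of all protein-coding genes. The interval treats genes of 1 library as independent, and the family was chosen with earlier peak counts known, so it is no test against that share. The 19 genes held 106 peaks, and 1 of these, where ZBTB25 and ZBTB1 overlap, counted for both. Median span was 26.4 kb for the family and 24.1 kb for all protein-coding genes. In the span class from 24.1 to 35.3 kb, which held the most members, 6 of 12 ZBTB genes had a peak and 19.8% of all genes did. Among the other large family of zinc finger genes, those named ZNF and a number, 34 of 240 on chromosome 19 (14.2%) and 57 of 237 elsewhere (24.1%) had a peak. Expression was not measured, and its part in these shares was not tested.

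ZBTB genes with a peak had a median of 4 peaks each, as did all protein-coding genes with a peak. Relative to length their median was 12.3 peaks per 100 kb of span, against 13.8 for ZNF genes with a peak on chromosome 19, 6.93 for those elsewhere and 6.84 for all. Their median span was 30.0 kb, against 64.9 kb for all. The median fold of the 106 peaks was 5.64 (quartiles 4.79 and 6.27), against 5.76 (4.79 and 7.22) over all peaks in protein-coding genes. The best fold of a member had a median of 6.24, against 7.04 for all such genes. The median inferred read number at a ZBTB summit was 12.5, against 15 in all protein-coding genes. The highest was 23 of 106 peaks, against 85 of 22293 peaks, and a highest value tends to rise with the number of peaks.

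**Figure D1:**
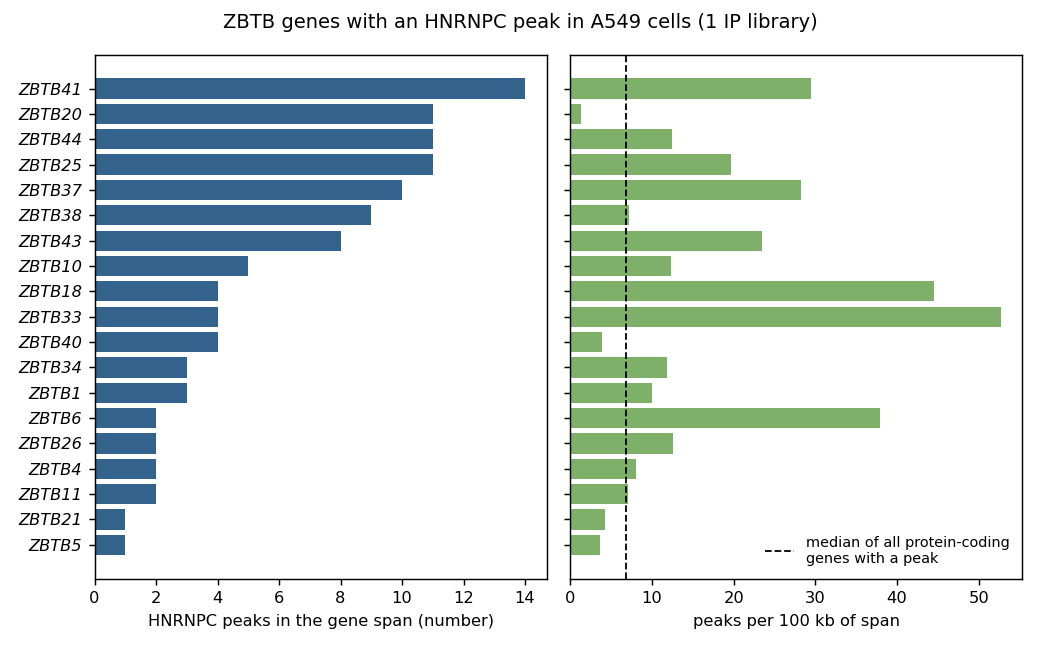
Number of HNRNPC peaks (left) and peaks per 100 kb of gene span (right) in each of the 19 ZBTB genes with a peak, in 1 IP library; the dashed line is the median of all protein-coding genes with a peak, 6.84 per 100 kb. ZBTB41 leads by number with 14 and ZBTB33 by density with 52.7, while ZBTB20 has 11 peaks at a density of 1.32. ZBTB33 loses its lead when only summits in 1 protein-coding span count, which leaves it 1 peak.

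Sequence was at hand for the start sites of the genes, and peaks of a few members reached them. RefSeq promoter windows (GRCh38.p14, 250 bases before to 50 after a start) were found for 36 members, with 70 windows in all. Peaks of 4 members reached into 5 of these windows, and the summits lay 41 to 85 bases after the start. The 3 windows with at least 20 bases inside a peak are printed 5′ to 3′ on the strand of the gene, with the bases inside the peak in capitals. They are shown because they are the stretches of ZBTB peaks whose letters were at hand. The ZBTB1 peak also covers bases before this annotated start of ZBTB1. All of this peak lies within the span of ZBTB1 and within that of ZBTB25 on the other strand.
ZBTB1, chr14:64504520-64504819, plus strand: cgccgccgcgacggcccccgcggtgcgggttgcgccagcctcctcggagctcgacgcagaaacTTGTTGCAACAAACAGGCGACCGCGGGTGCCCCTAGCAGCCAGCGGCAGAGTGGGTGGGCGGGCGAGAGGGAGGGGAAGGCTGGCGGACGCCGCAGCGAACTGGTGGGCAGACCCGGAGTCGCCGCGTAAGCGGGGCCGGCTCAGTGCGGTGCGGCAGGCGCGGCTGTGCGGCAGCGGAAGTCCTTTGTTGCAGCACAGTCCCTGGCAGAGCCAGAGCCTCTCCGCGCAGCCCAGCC
ZBTB38, chr3:141402099-141402398, plus strand: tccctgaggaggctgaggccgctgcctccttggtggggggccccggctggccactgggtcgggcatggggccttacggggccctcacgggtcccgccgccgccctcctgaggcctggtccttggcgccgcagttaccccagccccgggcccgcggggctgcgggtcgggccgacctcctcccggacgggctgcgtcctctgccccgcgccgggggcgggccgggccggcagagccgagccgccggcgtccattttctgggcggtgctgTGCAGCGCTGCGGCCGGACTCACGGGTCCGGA
ZBTB33, chrX:120250562-120250861, plus strand: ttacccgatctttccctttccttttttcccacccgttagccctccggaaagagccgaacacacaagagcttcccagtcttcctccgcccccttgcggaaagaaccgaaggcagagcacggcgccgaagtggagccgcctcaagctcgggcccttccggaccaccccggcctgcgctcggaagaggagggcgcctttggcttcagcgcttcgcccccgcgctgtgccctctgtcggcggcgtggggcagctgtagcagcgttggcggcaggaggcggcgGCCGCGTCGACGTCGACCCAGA

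G and C made up 71.3% of the stretch in capitals in ZBTB1, 75% in ZBTB38 and 72.7% in ZBTB33. Over these 3 whole windows the shares were 72.7%, 78.3% and 67.0%. The median was 62.3% over the 70 ZBTB windows and 58.7% over all 35116 windows. T made up 11.8%, 12.5% and 9.09% of the stretches in the same order. None of the 3 held TTTTT, the shortest run of T searched. The stretches are 237, 32 and 22 bases long, and the summits of the ZBTB38 and ZBTB33 peaks lie outside the printed windows. Little can be read from pieces this short. On the gene's strand TTTTT was found in 25.7% of the 70 ZBTB windows and in 24.9% of all 35116 windows, and AAAAA, its form on the other strand, in 25.7% and 24.5%. In the 38 windows of ZBTB genes with a peak TTTTT and AAAAA were each found in 13, or 34.2%. Of these 38 windows, 10 belong to ZBTB38 and 8 to ZBTB20, and their median G and C content was 56.7%. No such share was taken over the windows of all genes with a peak. GGACT, a form of the m6A consensus, was found in 28.6% of the ZBTB windows and 25.3% of all, and AGTCC, its form on the other strand, in 24.3% and 25.3%. A GGACT that runs into TTTTT shares a base with it, as does AAAAA with AGTCC. Such matches describe these windows alone. Sequence of the remaining peaks was not used here.

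Of the 4 members listed for methyl-CpG binding or DNA methylation, 3 had peaks, 15 in all, where 18.4% of all protein-coding genes had one. In the span classes of ZBTB38, ZBTB33, ZBTB4 and ZBTB24 the shares of all genes with a peak were 40.4%, 3.74%, 19.8% and 13.4%. ZBTB38, which binds methylated CpG, had 9 peaks with folds of 5.05, 7.22, 6.24, 6.24, 3.82, 7.43, 4.97, 4.89 and 5.30 in order of position. The first lay 44.4 kb into a span of 126 kb, and the last 4 lay together 4170 to 7051 bp before its 3′ end. Those 4 rested on 20 to 23 inferred IP reads each at control levels from 0.649 to 1.513. The ZBTB38 peaks at 7.22 and 6.24, by contrast, had 11 to 13 reads at the floor of 0.103, so a fold of that size came from fewer reads there. ZBTB33 (Kaiso), which also binds methylated CpG, had 4 peaks with folds of 5.27, 6.09, 5.74 and 5.75. Its span is 7.59 kb, and 52.7 peaks per 100 kb made it the most densely covered member. The summits of 3 of these peaks also lay within TMEM255A, and the list has no strand, so they cannot be given to ZBTB33 alone. With summits in 1 protein-coding span alone ZBTB33 had 1 peak, and ZBTB18 led by density with 44.5 per 100 kb. ZBTB4, another methyl-CpG binder, had peaks of 4.98 and 3.72, and ZBTB24, the gene mutated in a form of ICF syndrome, had none.

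Genes of brain and development were led by ZBTB20, a repressor known from liver and hippocampus. ZBTB20 had the highest folds of the family and 2 of its peaks were among the widest in the whole list. The peak at chromosome 3, 114331701 to 114339393, was 7693 bp wide with a fold of 12.1, a −log10 q of 17.7 and 23 inferred IP reads (exact Poisson interval 14.6 to 34.5). Beside it, the peak at 114319521 to 114330509 was 10989 bp wide with a fold of 11.1 and 21 reads (13 to 32.1). By width they ranked 10 and 2 of 23111, and by fold 843 and 1208. Between them lay a peak of 860 bp with 19 reads but a fold of 5.59, and its inferred control level was 1 where the wide peaks had 0.103. The read intervals of these 3 summits overlap. In total 10 of the 11 ZBTB20 summits lay in the final 65.8 kb of a span of 833 kb, and the other, at 401351 bp from the 5′ end and 45 bp after an annotated internal start, had a fold of 4.30. The summit at 65.8 kb, with a fold of 8.67, also lay within the lncRNA gene ZBTB20-AS1.

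**Figure D2:**
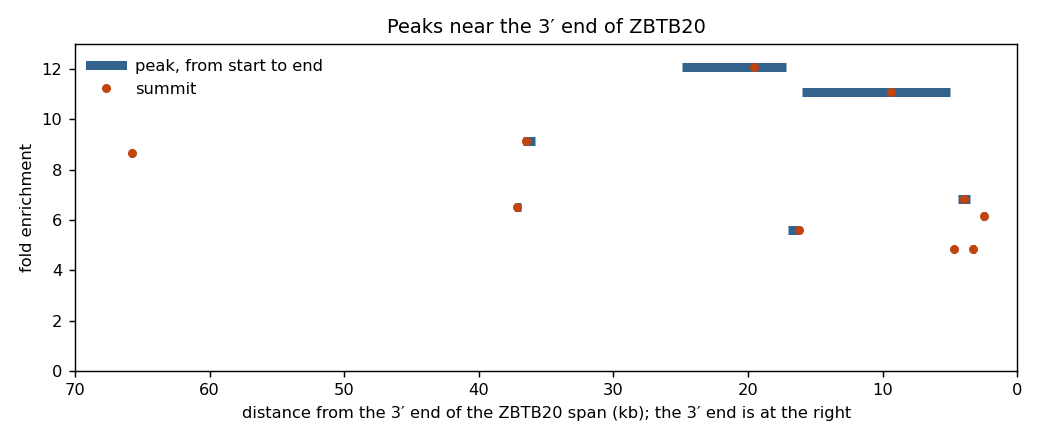
The 10 ZBTB20 peaks in the final 65.8 kb of its span, by distance from the 3′ end in kb (x axis, 3′ end at the right) and the authors' fold enrichment (y axis, linear); bars run from peak start to peak end and points mark summits. The peaks of 7693 and 10989 bp stand at folds of 12.1 and 11.1, and 4 peaks within 5 kb of the 3′ end lie between 4.84 and 6.82.

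ZBTB18, a repressor of neuronal genes, had 4 peaks with folds of 4.30, 6.29, 6.64 and 4.97 in a span of 8.99 kb, or 44.5 per 100 kb. The peak of 4.30 lay 423 bp from the 5′ end and had 7 reads, and the other 3 lay 2334 to 3547 bp from the 3′ end with 13 to 18 reads. ZBTB45, also of this group, had none. In the span classes of ZBTB20, ZBTB18 and ZBTB45, 33.6%, 3.74% and 19.8% of all genes had a peak.

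Of 7 members known for blood and immune lineages 1 had peaks, a share near the 18.4% of all protein-coding genes. It was ZBTB1, which is needed for lymphocyte development, with folds of 6.24, 5.27 and 3.82 and 6 to 11 reads. ZBTB7A (LRF), a repressor of fetal globin genes, ZBTB7B (ThPOK), which directs CD4 T cells, ZBTB16 (PLZF), the MYC partner ZBTB17 (MIZ1), ZBTB32 and the dendritic cell factor ZBTB46 had none. ZBTB16 and ZBTB46 have spans of 197 and 90.2 kb, and 33.6% and 40.4% of protein-coding genes in their span classes had a peak. Whether these genes are expressed in A549 cells was not measured.

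Of the 3 members listed for telomeres, ZBTB10 and ZBTB40 had peaks and ZBTB48 (TZAP), which binds telomeric repeats, had none. Of all genes in their span classes 27.9%, 40.4% and 3.74% had a peak, in that order. ZBTB10, also known as a repressor at SP1 sites, had 5 peaks at 7.22, 5.76, 5.76, 5.76 and 6.28. ZBTB40 had 4 peaks at 4.30, 4.30, 4.79 and 5.76 over a span of 102 kb. The 3 equal values in ZBTB10 each stand for 10 reads at the floor of 0.103, and 4.30 stands for 7 reads there. At the floor 4.79 stands for 8 reads, so the step from 4.30 to 4.79 is a single read. The intervals for 7 reads (2.81 to 14.4) and 10 reads (4.80 to 18.4) overlap.

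The remaining members include the gene with the most peaks. ZBTB41 carried 14 peaks in 47.6 kb, or 29.4 per 100 kb, which ranked 368 by number and 295 by density among 3685 protein-coding genes with a peak. Its highest peak, 1083 bp wide at chromosome 1, 197199395 to 197200477, had a fold of 9.16 and 17 reads, and its folds otherwise ran from 4.75 to 7.69. Of its summits, 6 lay between 2.22 and 5.57 kb from the low-coordinate end of the span and 8 were spread over the rest.

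ZBTB44 had 11 peaks with folds from 4.78 to 8.30, and 8 of these summits lay 2.16 to 7.51 kb from its 3′ end. A peak of 1061 bp with a fold of 8.18 lay in the interior, 53685 bp from the 5′ end. Another, at 512 bp from the 5′ end, had 7.70 and 14 reads.

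ZBTB37 had 10 peaks, all of modest height, with folds from 4.30 to 5.76 and 7 to 10 reads. They began 17.8 kb into a span of 35.5 kb and ran to 6.02 kb before its 3′ end. ZBTB43 had 8 peaks with folds from 5.01 to 6.65, whose summits all lay within 3.70 kb of each other and within 5.58 kb of the 3′ end.

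ZBTB25 had 11 peaks with folds from 3.82 to 7.31, the highest in a peak of 1339 bp. Of these summits, 5 lay 17659 to 20975 bp from its 5′ end and 5 others within 4320 bp of it. ZBTB25 and ZBTB1 run in opposite directions and overlap by 1498 bp. The summit that lay in both spans had a fold of 6.24 and 11 reads, and it is the peak marked in the ZBTB1 window. The list has no strand, so it cannot be given to either gene.

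Other members had 1 to 3 peaks. ZBTB34 had 5.27, 6.22 and 6.57, ZBTB6 had 4.52 and 6.09, ZBTB26 had 5.78 and 4.43, and ZBTB11 had 4.30 and 4.79. ZBTB21 had 1 peak at 5.01 and ZBTB5 1 at 4.79. ZBTB2, ZBTB3, ZBTB7C, ZBTB8A, ZBTB8B, ZBTB9, ZBTB12, ZBTB14, ZBTB22, ZBTB39, ZBTB42, ZBTB47 and ZBTB49 had none, which with ZBTB8OS and the 9 genes named above makes 23. Among the genes without a peak, ZBTB7C had the longest span, 386 kb, and the median was 20.6 kb.

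**Figure D3:**
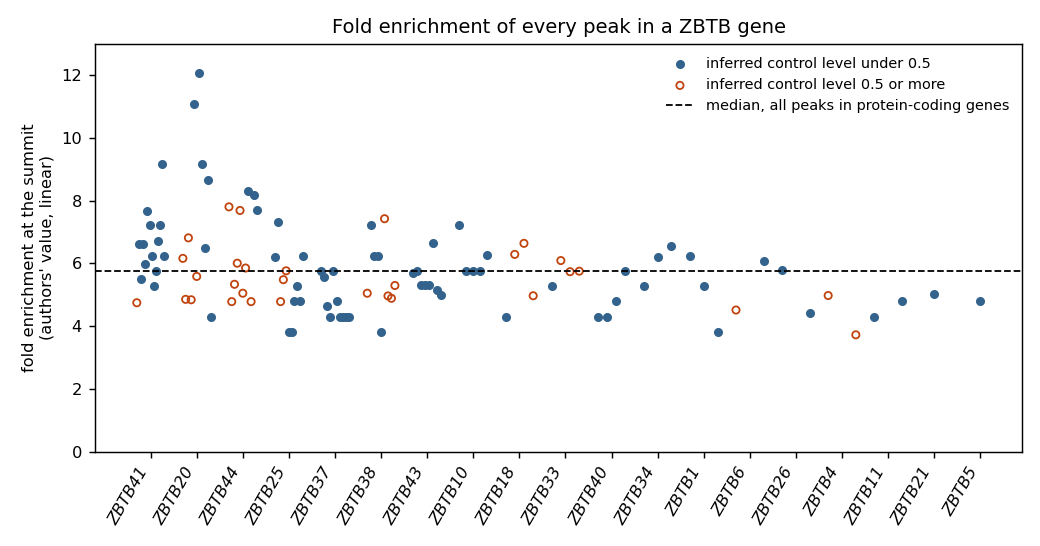
Fold enrichment at the summit (authors' value, linear axis from 0) of every peak in each ZBTB gene, left to right within a gene by position; filled points have an inferred control level under 0.5 and open points 0.5 or more. The dashed line is the median of all peaks in protein-coding genes, 5.76; peaks above 9 are seen in ZBTB20 and ZBTB41.

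Members that lie close together on a chromosome were compared for the number of peaks. All 5 members on chromosome 9 had peaks, among them ZBTB6 and ZBTB26, which lie 2.24 kb apart, and ZBTB43 and ZBTB34, 22.4 kb apart. ZBTB8B, ZBTB8A and ZBTB8OS, which lie next to each other on chromosome 1, had none, nor had any of the 5 members on chromosome 6 or the 3 on chromosome 19. With 18.4% of all protein-coding genes having a peak, nothing is read from counts this small. At the limits of the rule, the summits nearest to a span end inside a member lay 47 bp within ZBTB41 and 61 bp within ZBTB33. The nearest outside one lay 298 bp beyond ZBTB8OS, within RBBP4. The lowest −log10 q of a ZBTB peak was 2.09, in ZBTB4, where the list ends at 2.001.

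Position along the gene was not part of the rule. Strand was taken from the promoter table, which left out ZBTB6, ZBTB10, ZBTB40 and ZBTB41 among genes with a peak. In the 15 others, 34 of 81 summits (42.0%, 95% exact interval 31.1 to 53.5%) lay in the final 20% of the span towards the 3′ end. Over all protein-coding genes with a strand the share was 25.5% of 18750. In the final 10% of the span the shares were 33.3% and 13.6%, and in the initial 20% they were 14.8% and 19.5%. The ZNF genes on chromosome 19 had 20.4% of summits in the final 20%, and those elsewhere 14.8%.

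This lean came from few genes. ZBTB20, ZBTB44, ZBTB43 and ZBTB38 held 32 of the 34 summits, and without these 4 genes 2 of 42 summits (4.76%) lay there. These 4 were picked for having the most such summits, so a lower share without them was fixed by the choice. The share over all protein-coding genes was not trimmed in this way, so the 4.76% is not to be set beside it. Counted by gene, 6 of 15 members had a summit in the final 20%, against 1403 of 3075 protein-coding genes (45.6%). Summits in the same gene share its transcript, and the intervals take no account of that. ZBTB25, ZBTB1 and ZBTB5 lay at the other extreme, with no summit beyond 37.4%, 7.25% and 5.59% of the span from the 5′ end.

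**Figure D4:**
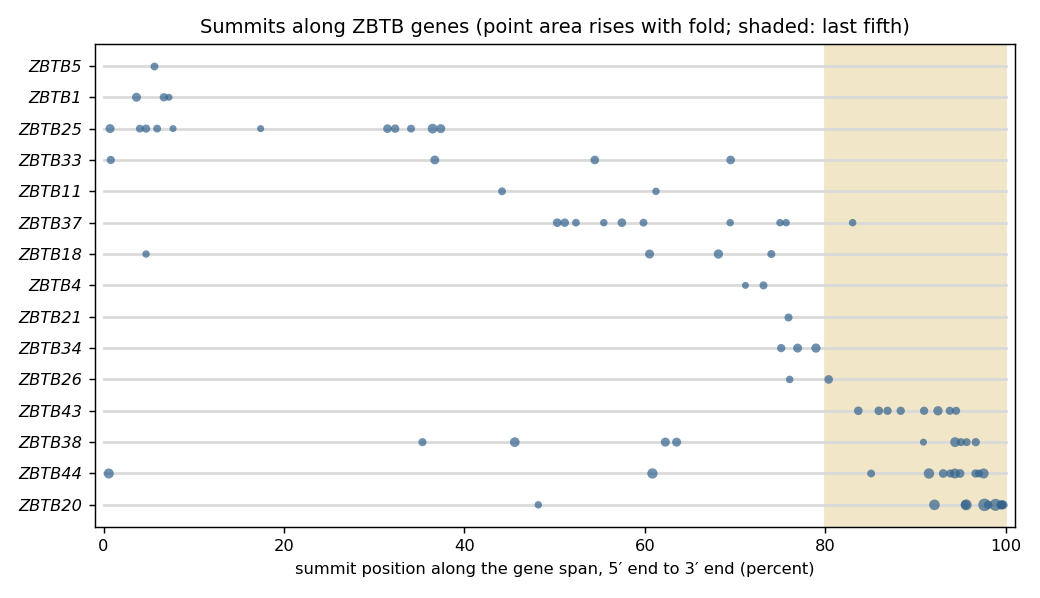
Position of each summit along the span of the 15 ZBTB genes with a peak and a known strand, from the 5′ end (0%) to the 3′ end (100%); point area rises with fold and the shaded part is the final 20%. Genes are ordered by their median position, from ZBTB5 at 5.59% to ZBTB20 at 98.1%.

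**Figure D5:**
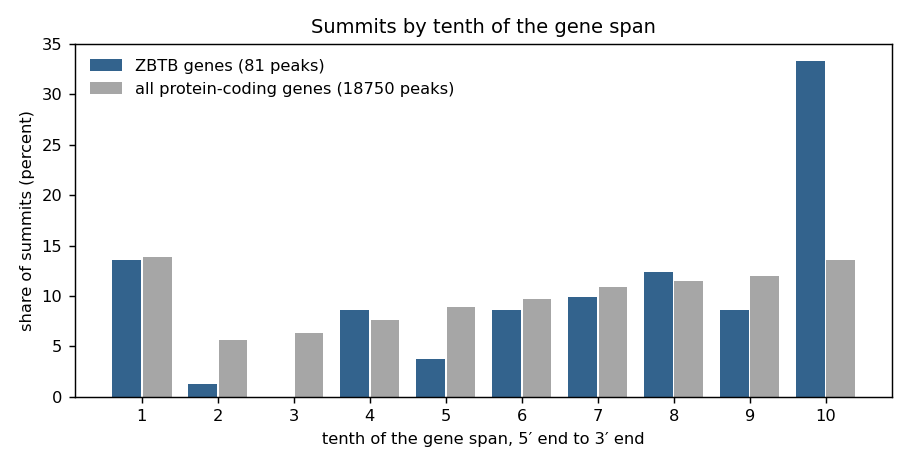
Share of summits (percent, y axis) in each 10% of the gene span from the 5′ to the 3′ end (x axis), for 81 summits in ZBTB genes and 18750 in all protein-coding genes. The last bar pair shows 33.3% and 13.6%.

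Distances between summits and to the span ends were also compared. Of 88 distances between neighbouring summits of a member, 43 (48.9%) were under 1 kb, against 21.8% in all protein-coding genes, and the medians were 1120 and 2888 bp. The ZNF genes were near the ZBTB share, with 45.6% on chromosome 19 and 41.7% elsewhere. Summits within 5 kb of either end made up 42.5% of the 106, against 45.8% in ZNF genes on chromosome 19, 30.1% in those elsewhere and 22.7% over all. Within 2 kb the order between ZBTB and all genes was the opposite, with 8.49% against 12.6%. The ZBTB peaks were 158.5 bp wide at the median, against 124 bp, and 5 of them (4.72%) were 1000 bp or wider, against 2.44%. Peaks in ZNF genes had median widths of 137 bp on chromosome 19 and 143 bp elsewhere. Of these peaks 9.17% and 6.64% were 1000 bp or wider, higher shares than in ZBTB genes. At 75 summits (70.8%) the inferred control level was under 0.5, against 65.9% over all. In ZNF genes the share was 78.3% on chromosome 19 and 80.5% elsewhere. Short spans put more of a gene near its ends, and the part of span in these shares was not tested.

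The partners of ZBTB proteins were set beside them from 2 lists. Of 17 genes for corepressors and for the CUL3 ligase, whose adaptors carry BTB domains, 8 had a peak (47.1%, 95% exact interval 23 to 72.2%, against 18.4% of all protein-coding genes), with 94 peaks in all. The 8 genes have spans of 86.4 to 353 kb, and in the span classes that hold these lengths 40.4% and 33.6% of all genes had a peak. Of the 9 without a peak, CUL3 has a span of 115 kb, in the class with 40.4%. HDAC3 and RBX1 have the shortest spans, in classes with 8.58% and 13.4%. The others run from 38.1 to 50.95 kb, in a class with 27.9%. The part of span in the share of this list was not tested. Its interval is no test either, as the list was chosen with earlier results of these data known. TBL1XR1 and TBL1X, subunits of the NCOR complex, reached 19.8 over 16 peaks and 11.1 over 15. The corepressor gene NCOR1 reached 12.6 over 34 peaks, and the scaffold gene SIN3A 15.0 over 15. HDAC4 had 9 peaks up to 6.24, and CTBP2 and BCOR had 1 each. The genes HDAC1, HDAC2, HDAC3, HDAC5, HDAC7, SIN3B, CTBP1, CUL3 and RBX1 had none. The median best fold of the 8 partner genes was 10.7, against 6.24 for the 19 ZBTB genes and 7.04 for all protein-coding genes with a peak. Best fold is the highest among a gene's peaks. Partner genes held up to 34 peaks, where ZBTB genes with a peak had a median of 4. The part of peak number in this difference was not tested. Of 8 BTB zinc finger genes under other names 1 had a peak (12.5%), against 18.4% of all protein-coding genes. It was MYNN, with 1 peak at 4.79, and BCL6, BCL6B, HIC1, HIC2, PATZ1, GZF1 and ZNF131 had none. Their spans run from 6.6 kb in BCL6B to 55.4 kb in ZNF131, and nothing is read from a count this small.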

How the data were processed

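Per the submitters' processing notes the tools were HISAT2, MACS2 and bedtools, on hg38; their roles, versions, settings and the control used are not given in the sources used here. In the deposited list each peak has a position, a summit, a score (the integer part of 10 times −log10 q), a fold enrichment (ratio), and −log10 of p and of q. All q were at most 0.00998. The list gives no read totals, so library depth is unknown.

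Gene spans were those of RefSeq (GRCh38, patch 14). A summit within several spans counted for each gene; 37 peaks on other contigs were left out. IP reads and control levels were inferred from fold, (scaled reads + 1) / (level + 1), and p. The scale was chosen for the best fit, and of 7112 levels of about 1 or more 83.1% were whole within 0.01. Genes and lists were chosen with earlier results of these data known. Every member was named, with full values for those leading by number, fold or density. Values of 1 partner gene are not reported here, though the list's counts include it. No test was made. Assignment and inference were tested on simulated data. For the inference these were drawn from the same formula with another scale, and control levels were a single low value or whole numbers. Other fractional levels, which many peaks had, were not simulated. Alternatives were a stricter q or fold, other overlap rules, summits in 1 span, wider spans and the list without ZBTB8OS. The work ran in Python 3.11.15 with scipy 1.17.1, numpy 2.4.6 and pandas 2.3.3, and plots were drawn with matplotlib 3.10.9.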

Additional observations from a re-analysis of the deposited data

How the results depend on the processing

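The number of ZBTB genes with a peak stayed at 19 when q had to be at most 0.001, when the fold had to reach 4, with any overlap with the span, at least 50% of the peak inside the span, summits in 1 protein-coding span alone, and without ZBTB8OS. With spans widened by 1 kb at each end it was 21. The genes added were ZBTB8OS, by a summit within RBBP4, and ZBTB22, by summits within TAPBP. The share of all protein-coding genes with a peak was 16.7% with q of 0.001 or less, 17.7% with a fold of 4 or more, 17.2% with summits in 1 span alone and 19.4% with wider spans, against 18.4%. With q of 0.001 or less 81 of the 106 ZBTB peaks were left and their median fold was 5.78 in place of 5.64. MYNN lost its peak when at least 50% of it had to lie inside the span, which gave 0 of 8 for its list. Summits within 2 and 10 kb of a span end made up 8.49% and 64.2% in ZBTB genes, against 12.6% and 34.9% in all protein-coding genes, so the order seen within 5 kb was the opposite within 2 kb. Of 152 values of single genes under 4 alternatives, 144 were within 1.5 times the reported one, and the others were numbers of peaks. ZBTB33 came to 1 peak in place of 4 with summits in 1 span alone. At the stricter q, 7 genes were lower by more than that, ZBTB37 with 5 in place of 10. Leaving out each member in turn, which was chosen after seeing the data, gave 34.3 to 47.9% of summits in the final 20% of the span. No paired analysis was possible because each group has 1 library. Depth limits single values: at 6 reads the exact Poisson interval is 2.20 to 13.1.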

Other observations

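Within 5 kb outside a ZBTB span lay 14 summits, beside 6 members, and all were within another gene. Of these, 6 lay within ZBTB1 or ZBTB25, each beside the other, and 2 within ZBTB6 beside ZBTB26, and these 8 are among the 106 peaks of the family. Beyond the 5′ end of ZBTB4, a peak at chromosome 17, 7484392 to 7484751, had a fold of 7.73 and 27 inferred IP reads, with its summit 351 bp outside and within POLR2A, the gene of the largest RNA polymerase II subunit. The nearer of 2 peaks beside ZBTB8OS, at chromosome 1, 32651203 to 32651328, had the same fold and read number and lay within RBBP4, a histone-binding chromatin gene. Next to ZBTB22 were 3 peaks within TAPBP at folds of 4.27, 4.48 and 2.88 with 38, 40 and 52 reads, more reads than at any ZBTB summit. The peaks within POLR2A, RBBP4 and TAPBP are not counted among those of the family.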
